A study of Mus musculus with 3 samples.

Results

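Exonic, untranslated-region (UTR) and gene-downstream regions are the stretches of Runx1-immunoprecipitated chromatin that the authors' annotation placed in an exon, a 5' UTR, a 3' UTR or within 3 kb past the end of a gene. The authors' promoter class reaches up to 3 kb from an annotated start, and the nearest of the exonic, UTR and downstream regions of replicate 3 lay 3021 bp from its assigned start. They made up 444 of the 15286 regions of the 3 replicates, counted in each replicate separately, with 9 of 451 in replicate 1, 36 of 1641 in replicate 2 and 399 of 13194 in replicate 3. The regions of replicate 3 are the main set here, and each was checked for an overlap of at least 1 bp with regions of replicates 1 and 2.

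All replicates belonged to 1 group: spinal cord cells of male C57BL/6J mice aged 8 to 10 weeks, with no control group, and with no treatment named in the labels. Cells of 5 cords at a time were fixed with formaldehyde. Each replicate was a chromatin immunoprecipitation with sequencing (ChIP-seq) of about 10 µg of chromatin pooled from 10 cords, made with 9 µg of a rabbit polyclonal antibody to Runx1. The labels do not say how animals were divided among the replicates, so the spread between them may be partly technical. The tissue entry of replicate 3 carries antibody text, and its group was read from its title. Replicate 3 listed far more regions than the others. Neither read totals nor the control library of the peak calls is given in the sources used here. The cells were a mixture, so binding in more cells and stronger binding per cell cannot be told apart.

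The transcription factor Runx1, known for its role in blood and myeloid development, binds DNA together with its partner Cbfb, and microglia are the myeloid cells of the spinal cord. Transcription factors are found mostly at promoters and enhancers, and an enhancer can lie inside an exon or just past the end of a gene. ChIP-seq reads a position in the genome, so a region in a UTR is a stretch of DNA that the transcript also covers and says nothing of RNA binding. A location class also depends on the annotation: a region in the last exon of one gene can lie in an intron of another or at a start that the annotation lacks.

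Starts of the RefSeq annotation that the authors' classes had not placed as promoters were looked for first. RefSeq promoter windows (GRCm38.p6), which run from 250 bases before to 50 bases after a start, of 6 genes overlapped 6 of the regions in replicate 3, and in 5 of these regions the start itself lay inside. Stretches of 30 bases from 4 of the windows are shown because they give the DNA under regions assigned to another gene. The region called downstream of Dusp1 covered the start of Gm34455, and the region called downstream of Tmem183a covered that of Ppfia4. The region in a 5' UTR assigned to the histone gene Hist1h4d covered the start of another histone gene, H2bc6. The region in the 5' UTR of Hoxc9 covered the start of Gm36878. Capitals mark the E-box CACGTG in the first 2 sequences and the first transcribed base in the others, all on the minus strand.
Gm34455, chr17:26504461-26504490: tctcccccctgcCACGTGacatccgggtct
Ppfia4, chr1:134344818-134344847: cagcgcccttgtCACGTGcgaaccagggct
H2bc6, chr13:23585956-23585985: ctttttcttcctaagAaagagatctgaaga
Gm36878, chr15:102981049-102981078: gatcagcgattgtcaGttcggaacgtggct

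The E-box CACGTG, which reads the same on both strands, lay 131 bases before the start of Gm34455 and 119 bases before that of Ppfia4. Of the 6 windows' genes, 2 held it, beside 7.15% of all 32851 RefSeq windows. The core Runx motif TGTGGT, searched on both strands (as ACCACA on the other, and able to share 2 bases with an E-box), was in 0 of the 6 and in 16.8% of all windows. In so few windows a count of 0 is near that share. The sequence of the regions themselves was not read, so these counts do not show whether the regions hold Runx motifs. The fold over background of these regions (the authors' ratio at the strongest summit) was 6.40 for the one at Gm34455, 5.64 at H2bc6, 3.67 at Gm36878 and 2.80 at Ppfia4. The windows cover a small share of the set: 6 of the 382 regions outside chromosome 18 lay within 1 kb of any RefSeq start (1.57%, 95% Wilson interval 0.722 to 3.38). The same share of intronic regions was 28 of 1993 (1.40%). Starts on chromosome 18 were not used here, which leaves out 17 regions.

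The 4 classes took a small share of each replicate. They held 2.00% of the regions of replicate 1 (95% Wilson interval 1.05 to 3.75), 2.19% of replicate 2 (1.59 to 3.02) and 3.02% of replicate 3 (2.75 to 3.33). The mean share was 2.40% ± 0.546 (SD, n = 3), and the 3 intervals overlapped. Intervals here cover counting error only. In replicate 3, 161 regions were exonic, 123 in a 3' UTR, 17 in a 5' UTR and 98 downstream. Replicates 1 and 2 listed 0 regions in a 5' UTR, for which 451 and 1641 regions allow a share of up to 0.845% and 0.234% (Wilson), both above the 0.129% of replicate 3. Introns held 15.8% of replicate 3 and promoters within 1 kb held 62.6%.

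**Figure D1:**
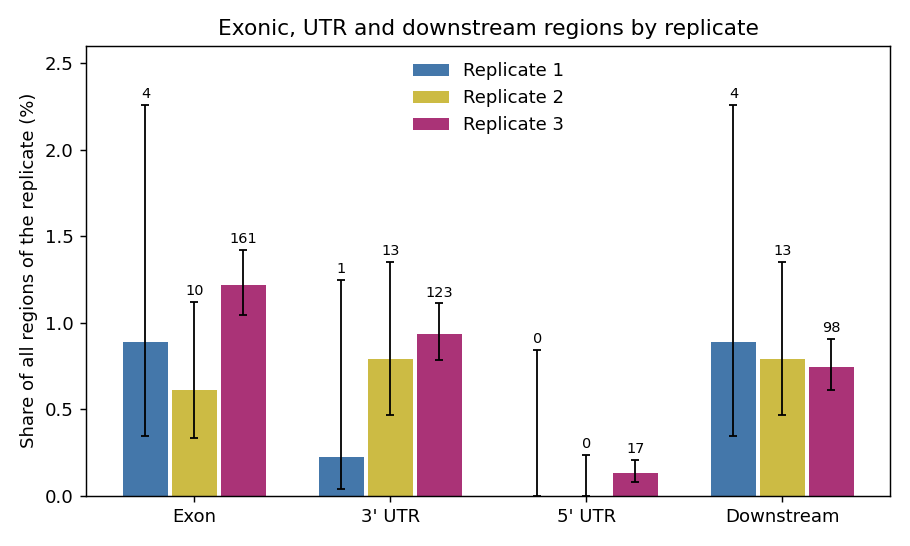
Share of all regions of a replicate (y axis, percent) in each location class, with 95% Wilson intervals as bars and the number of regions above each. Exonic regions reached 1.22% in replicate 3, and regions in a 5' UTR were listed in replicate 3 alone.

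The position of exonic regions within their transcripts is limited by the class, since regions within 3 kb of an annotated start are classed as promoter and few first exons are left to count. Of the 161, 2 were in the first exon of their transcript, 94 in an internal exon, 63 in the last exon and 2 in a gene with a single exon. The last exon thus held 39.1% (31.9 to 46.8), and 29.6% (22.6 to 37.8) among the 135 regions in transcripts of 3 or more exons. Where the files name the gene of the exon, it was protein coding for 75 of 81 internal exons and for 24 of 50 last exons. Median fold was 4.03 in last exons and 3.74 in internal ones. The gene whose exon was hit was the gene the authors assigned in 97 regions, another named gene in 37, and not named in 27.

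The assigned gene was protein coding for 278 of the 399 regions, a lincRNA gene for 40, an antisense gene for 20 and a processed pseudogene for 18. Against the RefSeq gene spans, 148 of 161 exonic, 116 of 123 3' UTR and 17 of 17 5' UTR regions lay inside some gene, and 23 of 98 downstream regions did. Fewer lay inside the span of the very gene they were assigned to: 92 exonic, 77 3' UTR and 13 5' UTR regions. Within a list of one gene's name, the class and the gene can therefore refer to different transcripts. For exonic regions the gene of the transcript is named below where the files name it, unless another is given. The classes of UTR and downstream regions name no transcript, so these regions carry the gene the authors assigned. Downstream regions of replicate 3 were spread over the 3 kb, with 35 within 1 kb of the gene's end, 26 at 1 to 2 kb and 37 at 2 to 3 kb. In replicates 1 and 2, 3 of 4 and 9 of 13 downstream regions lay within 1 kb.

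Fold over background in the 4 classes was close to that of the rest of the list. In replicate 3 the median fold was 3.79 over the 399 regions, with a range of 2.53 to 18.1. It was 3.83 in exons, 3.81 in 3' UTRs, 4.46 in 5' UTRs and 3.58 downstream, beside 3.84 in promoters within 1 kb and 3.78 in introns. The difference in median log2 fold from promoters was -0.06, 0.08 and -0.02 in replicates 1, 2 and 3, a mean of 0.0014 ± 0.074 (SD, n = 3; exact two-sided sign-flip permutation test, p = 1). Against introns it was 0.05, 0.07 and 0.0021, a mean of 0.043 ± 0.036 (SD, n = 3; exact two-sided sign-flip permutation test, p = 0.25). That is the smallest p that 3 replicates allow, so neither of these 2 comparisons could pass a threshold of 0.05. The regions were 426 bp wide in the median, beside 512 bp in promoters and 396 bp in introns, and 25.3% had several summits.

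**Figure D2:**
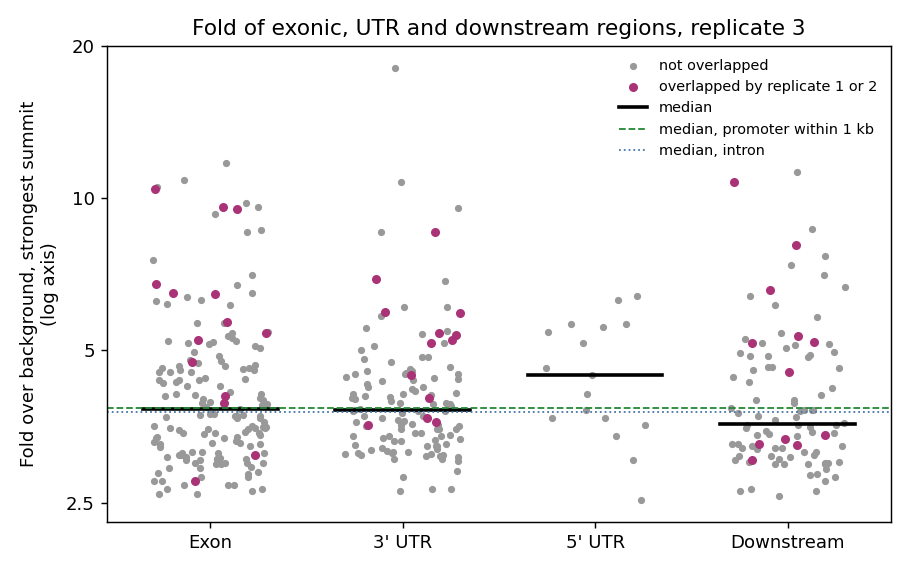
Fold over background at the strongest summit (y axis, log scale) of each exonic, UTR and downstream region of replicate 3, one point per region. Black lines are class medians, and coloured lines are the medians of promoter and intronic regions. The class medians lie between 3.58 and 4.46, and the Rgs3 region stands highest at 18.1.

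The strongest exonic region, whose fold was 11.7 and whose pileup was 57 reads (solved from the deposited fold and p), lay at chr19:41086054-41087015. It was assigned to Opalin, which encodes a myelin protein of oligodendrocytes, and lay in exon 20 of 21 of a transcript within the span of Tll2, a metalloprotease gene. An exonic region of Ppm1h, a protein phosphatase gene, had a fold of 10.9 at chr10:122886065-122886771. The region of Gm4262 had a fold of 10.5 and was 1869 bp wide. A region assigned to Htra4, a serine protease gene, had a fold of 9.77 and lay within Plekha2. None of these 4 was overlapped by a region of replicate 1 or 2, although their folds were above those of 98.8% or more of all regions of replicate 3.

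Among 3' UTR regions, the one assigned to Rgs3 (a regulator of G-protein signalling) reached a fold of 18.1, from 111 piled-up reads, at chr4:62659138-62660010. That fold was above 99.97% of the regions of replicate 3. The region lay upstream of the assigned start (distance -3612 bp), within RefSeq's spans of Rgs3 and Gm52741. No region of the other replicates overlapped it. A 3' UTR region assigned to Plekhf1 had a fold of 10.8 and lay in no RefSeq gene span. A region assigned to Fdxr had 9.57 and lay within Fads6. That of Fbxo2, which encodes a ubiquitin ligase subunit, had 8.55. Replicates 1 and 2 did not overlap these 3 either. The 3' UTR region of Tspyl2 had 8.59 in replicate 3 and 7.09 in replicate 2, where the overlapping region was classed as downstream.

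The 17 regions in a 5' UTR were led by Slc1a6, a glutamate transporter gene, at a fold of 6.39 and Stmn4, of the stathmin family, at 6.28. The region assigned to Dctpp1 had a fold of 5.64 and lay within Zfp771, and the one assigned to A3galt2 had 5.55 and lay within Phc2, a Polycomb gene. Of these 17, 10 had several summits, and 10 had another region of replicate 3 within 5 kb. Downstream regions were led by Gm10064 at 11.2, Sh2d6 at 10.7, Gm43909 at 8.71, Gm14488 at 8.07 and Psph, an enzyme gene of serine synthesis, at 7.68. Of these 5, replicates 1 and 2 overlapped Sh2d6 and Gm14488.

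Of the 399 regions of replicate 3, 39 were overlapped by replicate 1 or 2 (9.77%, 7.23 to 13.1), beside 11.7% of all regions of that replicate. Replicate 1 overlapped 8 (2.01%, beside 3.11% of all regions), replicate 2 overlapped 36 (9.02%, beside 10.4%) and both overlapped 5 (1.25%, beside 1.81%). These shares were near the background of the whole list and single out nothing about the 4 classes. The share was 14 of 161 for exons (8.70%), 13 of 123 for 3' UTRs (10.6%), 12 of 98 downstream (12.2%) and 0 of 17 for 5' UTRs, where the upper Wilson limit is 18.4%. Introns, the other class inside genes, were overlapped in 103 of 2087 (4.94%, 4.09 to 5.95), an interval below that of the 399 regions. Promoters within 1 kb were overlapped in 14.6%.

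Width moved with the overlap. Of the 40 exonic, UTR and downstream regions of 1 kb or more, 17 were overlapped (42.5%, 28.5 to 57.8), beside 40.0% of all regions of that width. Of the 231 under 500 bp, 11 were (4.76%, 2.68 to 8.32), near the 3.94% of all regions of that width and the 5.65% of such promoters. Among introns of that width 11 of 1345 were (0.818%, 0.457 to 1.46). The 39 overlapped regions had a median width of 922 bp and a median fold of 5.24, and 46.2% had several summits. The 360 others had a median width of 418 bp, a median fold of 3.72 and several summits in 23.1%.

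**Figure D3:**
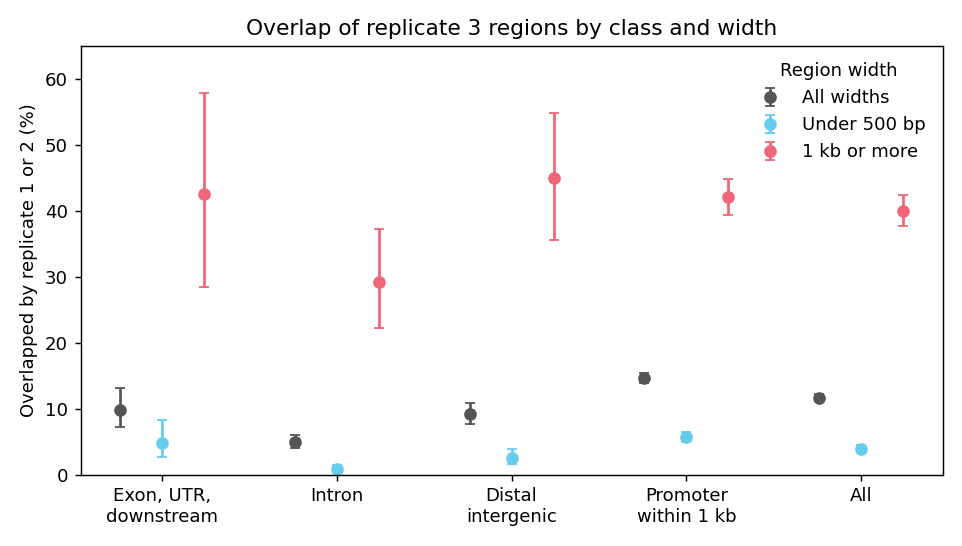
Share of replicate 3 regions overlapped by at least 1 bp by a region of replicate 1 or 2 (y axis, percent), by location and width, with 95% Wilson intervals. In each location the regions of 1 kb or more lie highest, at 42.5% for exonic, UTR and downstream regions, and those under 500 bp lie lowest, at 4.76%.

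Both other replicates overlapped 5 regions. The region downstream of Sh2d6, at chr6:72512499-72513497, had folds of 4.67, 5.19 and 10.7 in replicates 1, 2 and 3, from pileups of 20, 27 and 106 reads. An exonic region assigned to Hacl1, a peroxisomal lyase gene, at chr14:31661278-31663141 had folds of 3.15, 5.48 and 10.4. It lay within Btd, the gene of biotinidase. In both, replicate 3 was highest and replicate 1 lowest. The region downstream of Gm14488, at chr2:30711529-30712531, had 4.96, 4.53 and 8.07.

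The remaining 2 were highest in another replicate. The region downstream of Sncb, which encodes beta-synuclein of neurons, at chr13:54757593-54758680 had folds of 7.16, 5.42 and 5.17 in replicates 1, 2 and 3. Exon 3 of 19 of Srebf2, the gene of a transcription factor that drives cholesterol synthesis, held a region, assigned to Gm49502, at chr15:82170635-82171231 with folds of 4.45, 5.94 and 3.93. The pileup there was 16, 25 and 27 reads, so the lower fold of replicate 3 went with a higher background. Folds depend on each library's depth and background, and they are set side by side only to show where each region stands in its own list.

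Among regions overlapped by 1 other replicate, the exonic ones of highest fold were overlapped by replicate 2. Gm38001, a single-exon gene within Zfp704, had folds of 9.60 in replicate 3 and 3.32 in replicate 2. The region in an exon of Gm49539, assigned to Lncppara, had 9.51 and 6.48, and Cdc37l1, of the Cdc37 co-chaperone family, had 6.78 and 3.58. In 3' UTRs, A430078I02Rik had 6.93 and 5.05, and Dnajb12, a co-chaperone gene of the endoplasmic reticulum, had 5.94 and 4.72. Downstream, the region of Opalin had 6.59 and 4.29, that of Gm30340 had 5.33 and 3.44, and that of Gm26682 had 5.19 and 4.03. These 8 were picked for a high fold in replicate 3, which favours the direction seen, and replicate 3 was higher in each. Some regions not picked this way went the other way, such as a 3' UTR region assigned to Sp9. It had 3.67 in replicate 3 and 5.54 in replicate 2.

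**Figure D4:**
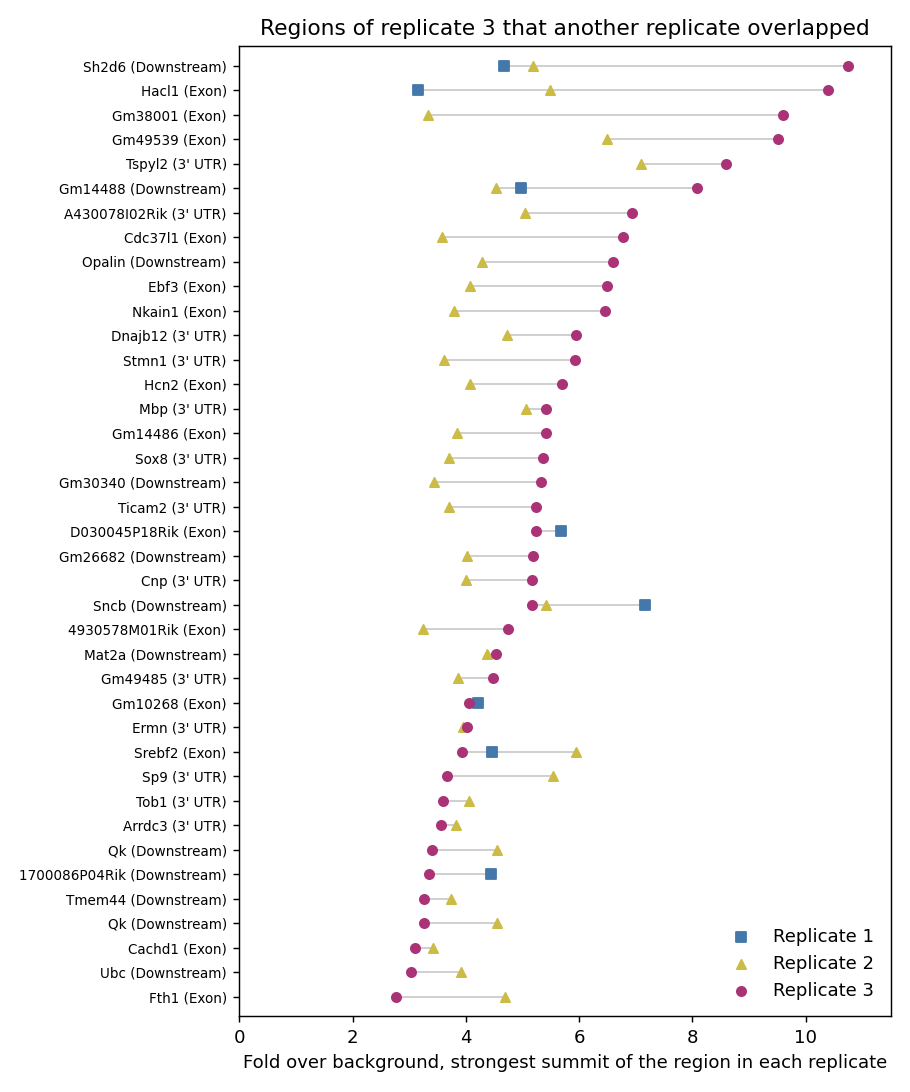
Fold over background at the strongest summit (x axis) of the 39 regions of replicate 3 that another replicate overlapped, with the fold of the overlapping region in replicate 1 (squares) and replicate 2 (triangles). Grey lines join the values of a region. Sh2d6 is highest at 10.7 in replicate 3, and Sncb is the highest in replicate 1 at 7.16.

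An overlapping pair did not always carry the same class. In replicate 1, 7 of 8 pairs had the same class, and in replicate 2, 25 of 37 did. Of the 13 pairs with a 3' UTR region in replicate 3, the partner in replicate 2 was distal intergenic in 3, among them the regions of Dnajb12 and Tob1. Of the 13 pairs with an exonic region, the partner in replicate 2 was intronic in 6, among them those of Ebf3 and Gm49539.

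Seen from the shorter lists, 8 of the 9 regions of replicate 1 were overlapped by replicate 3, beside 94.7% of all its regions, and 34 of the 36 of replicate 2, beside 92.1%. Of these, 7 and 25 met an exonic, UTR or downstream region of replicate 3. The other 1 and 9 met only regions of another class. The 3' UTR region of Pou3f3, a neural transcription factor gene, had a fold of 6.71 in replicate 1 and lay inside a promoter region of 9604 bp in replicate 3. Both exonic regions of Zeb2 in replicate 2, with folds of 4.71 and 4.25, lay inside 1 promoter region of 15033 bp. One 3' UTR region of Ermn, a gene of oligodendrocyte cytoskeleton, with a fold of 5.26 lay inside a promoter region of 6711 bp. These 3 genes were picked after their values were seen, as cases of a wide region. Regions that replicate 3 did not overlap were the exonic region of Gm42750 in replicate 1 (fold 4.57), and the 3' UTR region of Zbtb7b (3.75) and the exonic region of Capn9 (4.25) in replicate 2.

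Another region of replicate 3 lay within 5 kb of 191 of the 399 (47.9%, 43.0 to 52.8), beside 38.2% of all regions, 35.8% of intronic regions (33.8 to 37.9) and 23.3% of distal intergenic ones. The gene of the region also had a promoter region within 1 kb of a start in 213 (53.4%, 48.5 to 58.2), beside 68.8% of intronic regions (66.7 to 70.7) and 25.5% of distal intergenic ones. The regions fell on 343 genes, of which 302 had 1 region, 30 had 2 and 11 had 3 or more. Opalin, Gm30340, Zeb2 and Bcl11a had 4 each. The widest were Gm49539 at 5672 bp with 12 summits, Ebf3 (a transcription factor gene of neuronal differentiation) at 4237 bp with 10, and the 3' UTR of Mbp at 2488 bp with 7. The fold was 6.49 for Ebf3. Next came Gm30340 at 2048 bp and the 3' UTR of Tob1, an antiproliferative gene, at 1985 bp and a fold of 3.60.

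Of 21900 coding RefSeq genes, 250 had an exonic, UTR or downstream region in replicate 3 (1.14%), and 6875 had a region of any class (31.4%). The list of oligodendrocyte and myelin genes had such a region in 9 of its 25 genes (36.0%), and all 25 had a region of some class. Those 9 genes are 36.0% of the list's genes with any region, beside 3.64% among all coding genes with one. The 9 genes held 15 regions with a median fold of 3.97, beside 3.79 over the 399, and other replicates overlapped 7 of the 15, beside 39 of the 399. The lists were assembled with earlier results of these data known, so the counts are descriptions. Of the other lists of cell type markers, microglia had 1 of 24 genes (8 with any region), neurons 2 of 24 (18), astrocytes 0 of 18 (7), and endothelial, mural and meningeal cells 0 of 20 (4). The part of the cell mixture in these counts was not tested.

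Of the 15 regions listed under myelin genes, 12 were classed as 3' UTR or downstream, beside 221 of the 399. The class can be that of a neighbouring gene. The Cnp region in a 3' UTR and the downstream Opalin region at chr19:41081519 lay upstream of those genes' starts (distances -3321 and -4405 bp). Opalin had 4, from chr19:41061191 to 41087015, with folds of 6.59, 2.97, 4.33 and 11.7 in order along the chromosome. Of these, 2 lay in RefSeq's span of Opalin and 2 in that of Tll2. Mbp, which encodes myelin basic protein, had 2 in its 3' UTR, of 607 bp with a fold of 3.97 and of 2488 bp with 5.42, and replicate 2 overlapped the wider one with a fold of 5.06. Sox8, a glial transcription factor gene, had a 3' UTR region with 5.37 in replicate 3 and 3.70 in replicate 2.

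A 3' UTR region assigned to Cnp, the gene of a myelin phosphodiesterase, reached 5.17-fold in replicate 3 and 4.00-fold in replicate 2. It lay upstream of the Cnp start (distance -3321 bp), within the neighbouring Ttc25. Its partner in replicate 2 was classed as intronic. Another 4 genes had folds of 3.03 to 4.02 in replicate 3. Sox10, the transcription factor of the oligodendrocyte lineage, had a 5' UTR region with 3.03. Cldn11, the claudin of myelin tight junctions, had 3.93 in its 3' UTR, and Ermn 4.02. Qk, which encodes an RNA-binding protein needed for myelination, had 3 regions at its end with 3.14 to 3.39, and 2 of these met the same region of replicate 2.

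**Figure D5:**
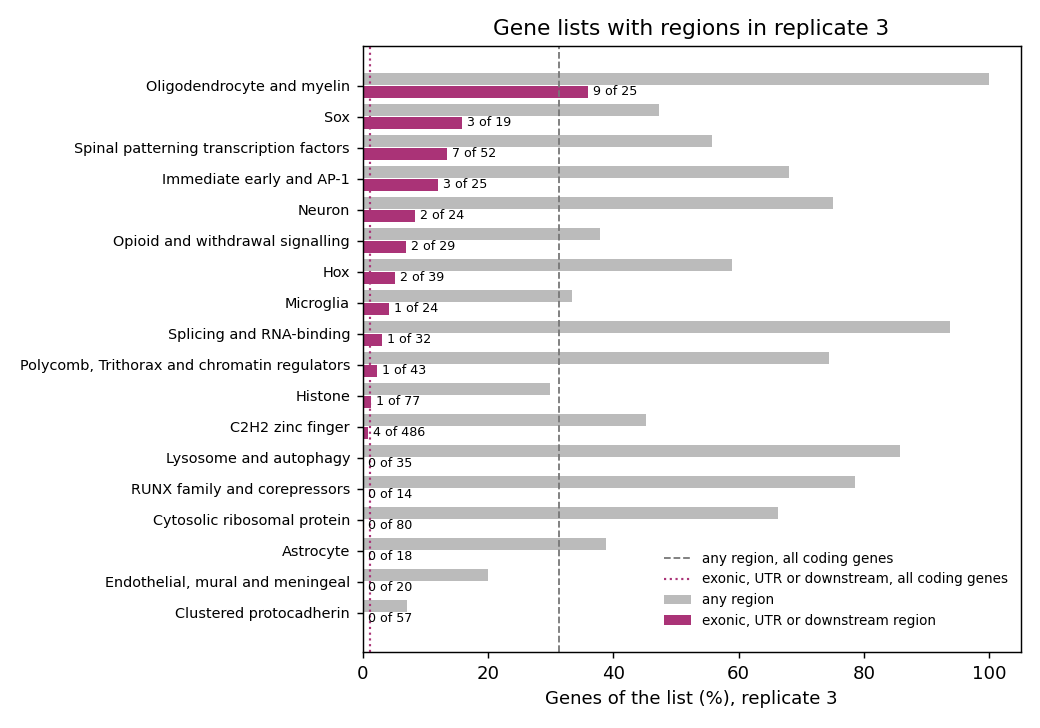
Share of the genes of each list (x axis, percent) with an exonic, UTR or downstream region of replicate 3 (coloured bars, with counts) and with a region of any class (grey bars). Vertical lines give the same shares of all coding genes, 1.14% and 31.4%. The oligodendrocyte and myelin list is highest on both, at 9 of 25 genes and 100%.

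Transcription factor lists had such a region in a smaller share of their genes than the myelin list. Spinal patterning factors had one in 7 of 52 genes (13.5%, 29 with any region, 4 by RefSeq span), beside 1.14% of all coding genes. Their 13 regions had a median fold of 3.43. Another replicate overlapped 0 of the 13, beside 9.77% of the 399, and in so few regions a count of 0 is near that share. Zeb2, a zinc-finger homeobox repressor gene, had 4 with folds of 3.50 to 5.17, and Bcl11a, a zinc-finger gene of dorsal horn neurons, had 4 with 3.04 to 4.14. A 3' UTR region assigned to Zic4 had 3.43 and lay upstream of the Zic4 start (distance -3284 bp), within RefSeq's span of Zic1. One downstream of Lbx1, a dorsal interneuron factor gene, had 3.21. Sox genes had 3 of 19 (15.8%, 9 with any region), with Sox4 at 3.71 in its 3' UTR beside Sox8 and Sox10. Hox genes, which set position along the body axis, had 2 of 39 (5.13%, 23 with any region), with Hoxc9 at 3.67 and Hoxb9 at 3.19. C2H2 zinc-finger genes had 4 of 486 (0.823%, 220 with any region), near the 1.14% of all coding genes. These had Zfp503 at 3.79, an exonic region assigned to Zfp706 at 3.52, the one assigned to Zic4, and Zfp57 at 3.15.

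Among neuronal markers, Isl1, the gene of a motor neuron homeodomain factor, had 2 regions with 3.81 downstream and 3.23 in its 3' UTR. Celf4 had 1 exonic region, assigned to 0710001A04Rik, with 3.39. The only microglial marker with such a region was Sall1, a microglial transcription factor gene, where the exonic region, assigned to Mir8110, had a fold of 2.70 and was at percentile 4.65 of the folds of replicate 3.

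Immediate early genes had 3 of 25, and 0 when genes were taken by RefSeq span. A region downstream of Dusp1, a phosphatase gene of MAP kinases, had 6.40 and is the one over the Gm34455 start shown above. One downstream of Arc, a synaptic plasticity gene, had 4.96, and an exonic one assigned to Fosb, of the AP-1 family, had 3.90. Opioid and withdrawal signalling genes had 2 of 29 (6.90%, 11 with any region, 1 by RefSeq span). They were Pomc, the precursor gene of beta-endorphin, with an exonic region of 3.06, and Gnai2, an inhibitory G-protein gene, with one downstream of 3.00. Chromatin regulators had 1 of 43 (2.33%, 32 with any region, 2 by RefSeq span), the H3K27 demethylase gene Kdm6b. It had 4.46 in a 5' UTR and 7.37 in a region called downstream that overlaps RefSeq's span of Kdm6b. Splicing and RNA-binding genes had 1 of 32 (3.1%, 30 with any region, 0 by RefSeq span), Hnrnpa2b1. It had 3.99 in a region called downstream and 3.24 in one classed as 3' UTR that lies in RefSeq's span of Nfe2l3. Histones had 1 of 77 (1.30%, 23 with any region). Counts of 1 in lists of these sizes are near the 3.64% of coding genes with any region, and single out nothing about them.

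Several lists had regions of other classes only. Of the 80 cytosolic ribosomal protein genes, 53 had a region and 0 an exonic, UTR or downstream one. Lysosome and autophagy genes had 30 of 35 and 0, RUNX family and corepressor genes 11 of 14 and 0, and clustered protocadherins 4 of 57 and 0. Over all coding genes the share was 1.14%, and 3.64% among those with any region. In lists of these sizes a count of 0 is near that share and singles out nothing about them.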

How the data were processed

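The authors deposited, for each of the 3 replicates, a list of summits with the peak caller's score, −log10 q, −log10 p and fold, which is a ratio to background, and an annotated table of regions. Per the submitters' processing notes, the tools were Trimmomatic 0.38, FastQC, Bowtie2, SAMtools 1.9, Picard 2.18.26 and MACS2 2.1.2 on GRCm38. The sources used here give neither their settings nor the annotation tool. Each replicate had its own calls, per the deposited files. A region took the fold of its strongest summit, and starts were counted from 1.

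Pileups were solved from the deposited fold and −log10 p under a Poisson model, within 0.001, for 100% of summits, and the method was tested on simulated data (100% of 1586 summits). Depth was otherwise unknown. A region's gene is that of the transcript named in its class where the files name it, and otherwise the assigned gene. Of 343 genes, 300 matched a RefSeq symbol. Named genes are the regions overlapped by both other replicates, the 5 of highest fold per class, the 3 of highest fold overlapped by 1 other replicate per class, the 5 widest, those of replicates 1 and 2 not overlapped, and up to 4 genes per list. In the oligodendrocyte list, genes beyond the first 4 were named after their values were seen, as were genes with 4 regions, and 1 gene is not reported here. The exonic, UTR and downstream regions and the 18 gene lists were chosen with earlier results of these data known. Figures were drawn with matplotlib 3.10.9, and values computed with scipy 1.17.1, pandas 2.3.3 and numpy 2.4.6 in Python 3.11.15.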

Additional observations from a re-analysis of the deposited data

How the results depend on the processing

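Of 36 alternatives to the 7 main values, 23 kept both the sign and the value within its spread or interval. Another 9 moved outside it, and 4 changed sign, whether or not they stayed within the spread. The overlapped share of the regions of replicate 3 was 3.76% when 50% of both regions had to overlap (4.88% of all regions), 6.27% for summits within 200 bp (7.60%), 15.5% for −log10 q of at least 5 (17.9%) and 25.8% for a fold of at least 5 (31.7%). It was 2.01% to 9.02% leaving out a replicate, with the low value without replicate 2. Among regions with 1 summit, an alternative added after seeing the data, it was 7.05%, beside 6.91% of all such regions. The median width was 630 bp at the q limit and 809 bp at the fold limit. The last-exon share was 29.6% in transcripts of 3 or more exons. The mean log2 fold difference from promoters changed sign to -0.0011 with the median fold of the summits, -0.018 with 1 summit and -0.040 without replicate 2 (range -0.040 to 0.032 leaving out each replicate). That from introns changed to -0.012 with 1 summit. These 4 have p = 0.5 or above in exact sign-flip permutation tests, and the causes of the changes were not tested. With 2 replicates left, 0.5 is the smallest p such a test allows, so the setting without replicate 2 could give no lower value. With the authors' assigned gene, 16 of 18 list counts kept their value within 1.5 times (microglia 0, neurons 1 otherwise), and with RefSeq gene spans, added after seeing the data, 13 did (otherwise immediate early 0, splicing 0, spinal patterning 4, opioid 1, chromatin regulators 2). The myelin list then had 10 and 6 genes. No paired analysis was possible because the labels give 1 group. Regions under the authors' q limit are not in the lists, so a missing overlap does not show missing binding.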
